A study of Rattus norvegicus with 12 samples.

Results

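miR-221 and miR-222 are microRNAs (miRNAs) made from neighbouring hairpins on chromosome X, and they were followed through the differentiation of rat parotid acinar cells, the saliva-producing cells of the gland. Their assays were found by name in the qRT-PCR table, after dropping the species prefix and the arm suffix. Of the 375 miRNA assays on the panel, 2 matched, mmu-miR-221 and mmu-miR-222, both with the mouse prefix, on a panel made for mouse and rat; an assay with the rat prefix was not among the matches for either name. The assay names do not give the arm of the hairpin.

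The samples came from albino Sprague Dawley rats, with 3 samples at each of embryonic day 20 (E20) and postnatal days 5, 15 and 25 (P5, P15 and P25). At every age the RNA was total RNA of acinar cells that had been cut from parotid sections by laser capture, and the samples of an age were taken from separate litters. Per the study's methods, the gland was taken out and embedded in animals older than P5, while halved heads were embedded at younger ages. Collection thus differed between E20 and P25 and cannot be told apart from age. No animal was treated, and the labels used here do not state the sex of the animals. The study followed these ages to describe how miRNA levels move as acinar cells stop dividing and fill with secretory granules.

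A miRNA recognises its targets mainly through the seed, bases 2 to 8 of the mature strand. miR-221 and miR-222 share their seed and are known to repress the cell cycle inhibitor Cdkn1b (p27) and the stem cell factor receptor Kit, and both are well known from endothelial cells and from dividing cells. They are thought to be processed from a common primary transcript. These statements are background and were not measured here.

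The mature sequences are shown because the shared seed is what joins the pair and the remaining bases are what an assay can use to tell them apart. They were read from RefSeq for the rat, build GRCr8, and run 5′ to 3′ with the seed in capitals; 298 of the 375 assays matched a rat miRNA in that table by name. The 3p arms come first.
miR-221-3p: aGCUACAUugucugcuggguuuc
miR-222-3p: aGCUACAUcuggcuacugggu
miR-221-5p: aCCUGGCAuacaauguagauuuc
miR-222-5p: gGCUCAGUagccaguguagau

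The 3p arms were identical over their first 8 bases and matched at 11 of the 21 positions compared from the 5′ end. Counted from that end, with the base of miR-221-3p first, the differences were U9C, G10U, U11G, C12G, U13C, G14U, C15A, U16C, G17U and U20G. Both arms also hold the run cugggu near the 3′ end, shifted between them. In RefSeq 2 rat miRNAs carry the seed GCUACAU, these 2 alone, and no further assay of the panel matched a miRNA with it. The 5p arms have different seeds and matched at 5 of 21 positions.

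In GRCr8 both genes lie on the forward strand of chromosome X. The hairpin of Mir222 spans chrX:6022621-6022723, with its 3p arm at chrX:6022682-6022702, and that of Mir221 spans chrX:6023182-6023290, with its 3p arm at chrX:6023246-6023268. The hairpins are 458 bases apart, and both fall within the annotated long noncoding RNA genes LOC120099382 and LOC120099384. The nearest protein-coding genes are Chst7 on the lower-coordinate side, 1036248 bases away, and LOC100359876 on the other side, 611720 bases away.

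Levels were measured as threshold cycles (CT), the PCR cycle at which a well's signal crosses a threshold, so that a lower CT stands for more template and 1 cycle for about 2 times as much. To compare samples, a normalized value was taken as an array's median CT, over its detected miRNAs, minus the CT of the assay. This value is on a log2 scale, and 0 is the level of the median detected miRNA of that array. The arrays detected 179 to 307 miRNA assays, with a median CT between 31.3 and 34.8. Each CT is 1 well, and primer efficiencies are unknown, so the 2 assays' values are not a ratio of copies; differences between the assays are compared only across samples.

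Over the wells with a CT, the mean of miR-221 was at or above the array median at all ages, and none of its changes passed a test. Its normalized values were 2.36, -0.18 and 1.01 at E20, with a mean of 1.06 ± 1.27 (SD, n = 3). At P5 they were 0.23, 2.03 and 1.74, with a mean of 1.33 ± 0.97 (SD, n = 3). The values of these ages overlapped across most of their range.

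At P15 miR-221 was undetermined in replicate 1 and measured 2.61 and 0.69 in the others, a mean of 1.65 ± 1.36 (SD, n = 2). At P25 it measured -1.46 and 1.48 and was undetermined in replicate 3, a mean of 0.01 ± 2.08 (SD, n = 2). With the undetermined wells at a CT of 40, a setting chosen after the values had been seen, the means were -0.65 ± 4.10 at P15 and -2.10 ± 3.93 at P25 (SD, n = 3), below the array median. The lowest of the 10 measured values was that of P25 replicate 1, at a CT of 35.6, and the highest that of P15 replicate 2. In order of their means over measured wells the ages ran P15, P5, E20 and P25, and no neighbours in that order differed by more than the SD of either.

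miR-222 lay below the array median in all 12 samples, and its mean was lowest at E20 and highest at P25. Its normalized values at E20 were -1.34, -5.40 and -5.53, with a mean of -4.09 ± 2.38 (SD, n = 3). At P5 they were -4.05, -0.41 and -0.28, with a mean of -1.58 ± 2.14 (SD, n = 3). At each of these ages 1 sample stood apart from the remaining pair, the first replicate in both, high at E20 and low at P5.

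At P15 miR-222 measured -2.46, -3.81 and -4.10, a mean of -3.46 ± 0.88 (SD, n = 3). At P25 it measured -1.09, -0.73 and -1.03, a mean of -0.95 ± 0.19 (SD, n = 3). All P25 values were above all E20 and P15 values, although the highest E20 value, -1.34, came close to the lowest at P25, and P5 overlapped every other age. In order of their means the ages ran P25, P5, P15 and E20, and P25 and P5, P5 and P15, and P15 and E20 each differed by less than the larger SD of the 2 ages.

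**Figure D1:**
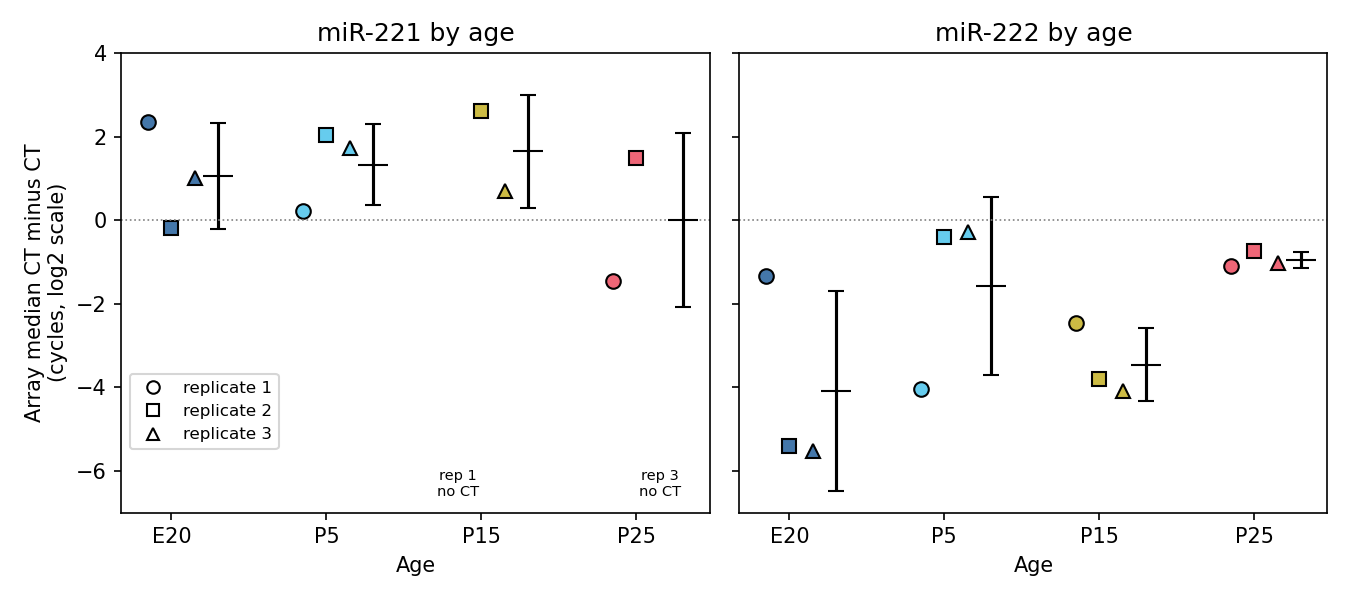
Normalized level (array median CT minus CT, in cycles, log2 scale) of miR-221 and miR-222 in each sample by age; symbols mark the replicate, and the bar beside each age is the mean ± SD over its measured samples. miR-221 overlapped at all ages, while miR-222 ranged from -5.53 at E20 to -0.28 at P5 and was tightly grouped at P25.

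The CT values behind these levels differed in precision. miR-221 had a mean CT of 31.9 over its 10 wells, 1 of them above 35. miR-222 had a mean CT of 35.7 over 12 wells, 7 of them above 35, with a highest CT of 38.2. Where the panel carries both a mouse and a rat assay of a miRNA, the SD over samples of their CT difference had a median of 0.50 cycles in 3 pairs with a mean CT under 32, 0.82 in 8 pairs from 32 to 35 and 1.52 in 5 pairs above 35. The high-CT wells of miR-222 were those of E20 replicates 2 and 3 (37.6 and 37.8), P5 replicate 1 (38.2), all of P15 (37.2, 36.7 and 37.6) and, lower, P25 replicate 1 (35.3).

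The spread between samples of an age differed with the age. At E20 the SD of miR-222 exceeded that of 95.8% of the 192 tested assays, whose median SD was 0.67, and at P5 that of 90.1%, against a median of 0.86. At P15 its SD exceeded that of 33.3%, against a median of 1.19, and at P25 that of 5.73%, against a median of 0.85. The SD of miR-221 exceeded that of 85.9% at E20, 55.7% at P5, 58.9% at P15 and 89.1% at P25, the last 2 on 2 measured values each.

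The change from E20, before birth, to P25, near weaning, was tested with limma over the 192 assays that were detected in at least 2 of 3 samples at every age, both members among them. Relative to the array median, miR-222 was 3.14 higher at P25 on the log2 scale (SE 1.16, 95% interval 0.68 to 5.60), a factor of 8.82. The unadjusted p was 0.0156 and limma's adjusted p 0.0857, so the difference did not pass at 0.05. Of the 192 assays 5 had a larger positive change, and miR-222 ranked 35 by p.

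miR-221 was 1.01 lower at P25 in the same fit, a change of -1.01 (SE 1.05, 95% interval -3.24 to 1.22, limma's adjusted p = 0.516), with P15 replicate 1 and P25 replicate 3 imputed. Without P25 replicate 1 the change was 0.21, so its direction rested on that sample; with undetermined wells at CT 40 it was -3.16, and with no array reference -2.73, and neither passed. Neither member was called, beside a background of 12.0% of assays called in this comparison, 8 higher and 15 lower (20 and 20 against the median of the 120 miRNAs with a CT in every sample, 34 and 13 with the median after imputation, and 1 and 25 with no reference); over all assays the median change was 0.15.

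Whether miR-222 passed depended on the samples and on the reference. Without E20 replicate 1, its highest E20 value, the change was 4.52 with limma's adjusted p at 0.0212, whereas leaving out any other sample gave between 2.42 and 3.21 and none below 0.0501. Taking the array median after the missing wells had been imputed gave 3.87 with an adjusted p of 0.0278 in limma, while the median change over all assays moved to 0.88. With no array reference the change of miR-222 was 1.42 (limma's adjusted p = 0.593), and its mean CT was 36.2 at E20 and 34.8 at P25. In exact two-sided permutation tests of the measured values, miR-222 at P25 against E20 gave p = 0.1, the smallest that 3 samples against 3 allow, and miR-221 gave p = 0.5.

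**Figure D2:**
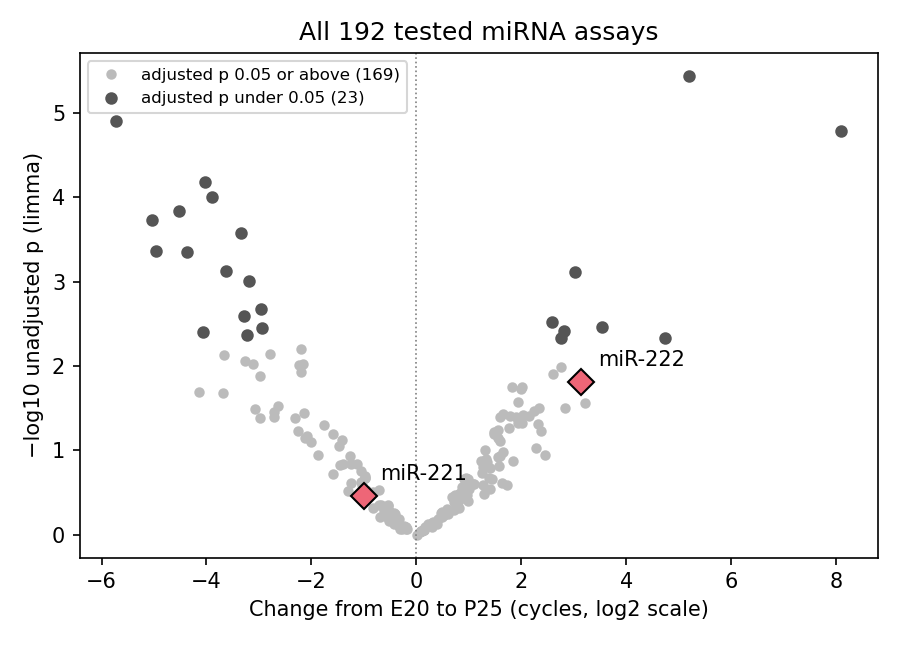
Change from E20 to P25 (cycles, log2 scale) against -log10 of limma's unadjusted p for the 192 tested assays; dark points have an adjusted p under 0.05, and the diamonds are miR-221 and miR-222. miR-222, at 3.14, and miR-221, at -1.01, both lie among the 169 assays that did not pass.

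The 3 steps between neighbouring ages gave no call for either member, in comparisons where 0% of the assays were called, 0 each by limma's adjusted p; 15, 12 and 17 assays had an unadjusted p under 0.05. miR-222 moved by 2.51 from E20 to P5 (SE 1.16, unadjusted p = 0.0458 and adjusted p = 0.614 in limma). It then moved by -1.88 from P5 to P15 (SE 1.16, limma's adjusted p = 0.879) and by 2.51 from P15 to P25 (SE 1.16, unadjusted p = 0.0462 and adjusted p = 0.522 in limma). Its means did not run in 1 direction with age, and no step passed.

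miR-221 moved by 0.27, -0.62 and -0.65 over the same steps (SE 1.05 each), with limma's adjusted p at 0.938, 0.879 and 0.948. The sign of each of these steps turned when some single sample was left out or under another reference or treatment of missing wells. The 95% intervals were wide, from -1.96 to 2.50 for the first step, and changes of that size in either direction could not be told from none with these samples.

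Over all 4 ages together, limma's F test gave an adjusted p of 0.837 for miR-221 and of 0.226 for miR-222 (0.0470 before adjustment), beside 7.81% of assays called. The linear trend over age was -0.42 per 10 days for miR-221 (SE 0.36, limma's adjusted p = 0.449) and 0.79 per 10 days for miR-222 (SE 0.40, limma's adjusted p = 0.192), beside 14.1% of assays called. Neither member was called in either test.

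Because both miRNAs were measured on the same array, the CT of miR-222 minus the CT of miR-221 needs no array reference, and a change in it is a change of one miRNA relative to the other. At E20 this difference was 3.70, 5.22 and 6.54 cycles, with a mean of 5.15 ± 1.42 (SD, n = 3). At P5 it was 4.27, 2.44 and 2.02, with a mean of 2.91 ± 1.20 (SD, n = 3). A larger value stands for more miR-221 relative to miR-222, so the balance lay further towards miR-221 at E20, with an overlap between 3.70 and 4.27.

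At P15 the samples with both miRNAs gave 6.42 and 4.79 cycles, a mean of 5.60 ± 1.16 (SD, n = 2). At P25 they gave -0.38 and 2.21, a mean of 0.92 ± 1.83 (SD, n = 2). The P25 values were below every value at E20 and P15 and overlapped P5, whose lowest value was 2.02. Among the samples with both CTs, P25 replicate 1 alone had a higher CT for miR-221 than for miR-222. In P15 replicate 1 and P25 replicate 3 miR-222 was measured, at 37.2 and 34.7, and miR-221 was not.

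The difference varied among the 4 ages with F = 5.32 and p = 0.0371 in an exact permutation test over 25200 arrangements of the 10 samples. Its change from E20 to P25 was -4.23 cycles, with p = 0.1 in an exact two-sided permutation test, the smallest p that 3 samples against 2 allow. Adjusted over these 2 tests, the p-values were 0.0743 and 0.1, so the difference among ages did not pass after adjustment. This test moves samples freely between replicate numbers. With the replicate number as a block, E20 included, the exact permutation p was 0.164. Leaving out single samples gave p between 0.0333 and 0.136, at or above 0.05 without E20 replicate 2 (0.0817), E20 replicate 3 (0.0556), P5 replicate 2 (0.0730), P5 replicate 3 (0.0563), P15 replicate 2 (0.0841) or P25 replicate 1 (0.136).

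The 2 samples without a CT for miR-221 are not in these tests. With their CT set to 40, a setting chosen after the values had been seen, the difference was -2.79 in P15 replicate 1 and -5.27 in P25 replicate 3. The exact permutation test over all 12 samples then gave p = 0.187, and the change from E20 to P25 was -6.30 cycles. Under that setting P15 no longer lay wholly above P25.

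**Figure D3:**
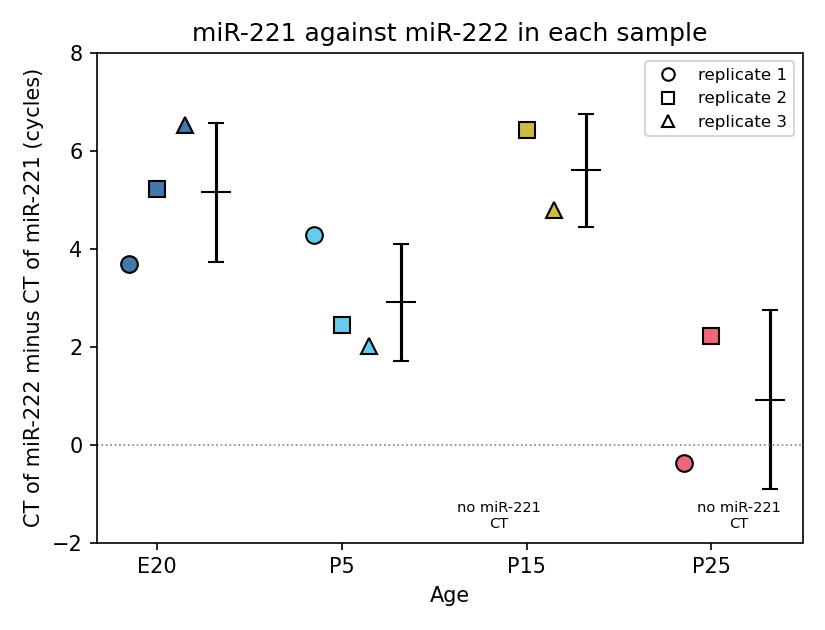
CT of miR-222 minus CT of miR-221 (cycles) in each sample by age, with the mean ± SD beside each age; symbols mark the replicate, and 2 samples have no CT for miR-221. The values were 3.70 to 6.54 at E20 and -0.38 and 2.21 at P25.

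Across the 10 samples with both miRNAs, the normalized values followed each other loosely. Pearson's r was 0.243 (permutation p = 0.502) and Spearman's rho was 0.382 (permutation p = 0.279), both with an adjusted p of 0.502 over the 2 measures. Without the samples farthest from the median of miR-221, P25 replicate 1 and E20 replicate 2, r was 0.493 (permutation p = 0.206). Leaving out 1 sample at a time gave r between 0.103 and 0.620, the highest without P25 replicate 1.

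Within ages, after each age's mean was taken off, r was 0.665 over the same 10 samples. This value is a description, with no test and no other pairs set beside it. At P5, for example, replicate 1 was the lowest of the 3 samples for both miRNAs, and at E20 replicate 1 was the highest for both. P5 replicate 1 also detected the fewest miRNAs of its age (224), and the part of array quality in this r was not tested.

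**Figure D4:**
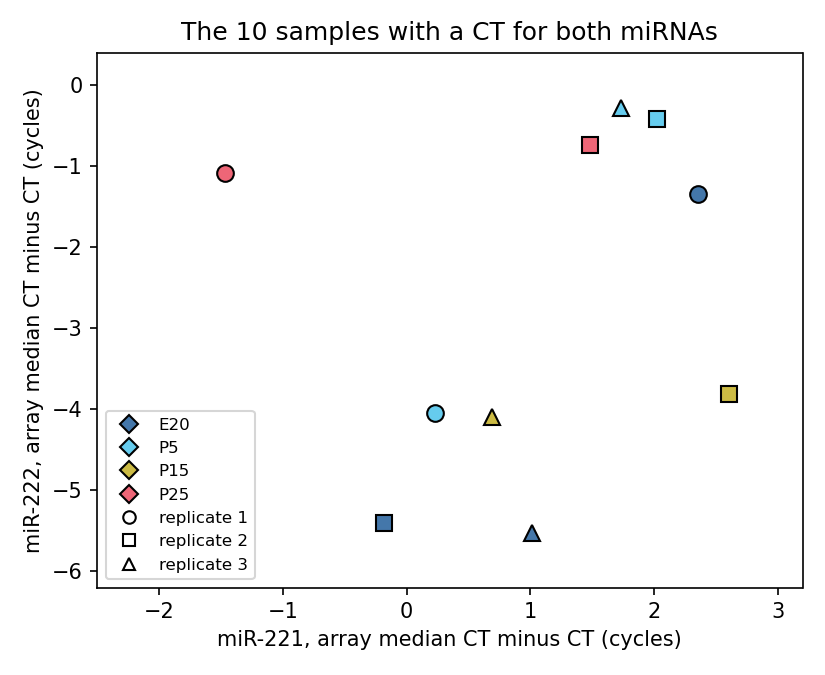
Normalized level of miR-222 against that of miR-221 (array median CT minus CT, cycles) in the 10 samples with both, coloured by age and with the replicate as symbol. P25 replicate 1, at -1.46 for miR-221 and -1.09 for miR-222, lies apart from the other samples, and pooled r was 0.243.

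The closeness of the pair was set beside that of other miRNA genes. Among 48 other pairs of assays whose genes lie within 10000 bases of each other in GRCr8, r over the same 10 samples had a median of 0.536, and 14 of the 48 were lower than miR-221 and miR-222. The SD of the CT difference was 2.17 cycles for miR-221 and miR-222, against a median of 1.53 in those pairs, 10 of which had a larger SD. Over 10290 pairs of the 144 tested assays measured in these samples, leaving out the 6 pairs of assays for the same miRNA, the median r was 0.098 and the median SD 1.57. Many of the 48 neighbouring pairs, and most of those with a lower r than miR-221 and miR-222, lie on chromosome 6. The pairs were not matched for CT, which averaged 35.6 for miR-222 in these samples, and the part of precision in r and SD was not tested. All these pairs share assays, arrays and the array reference, so the values are a description.

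**Figure D5:**
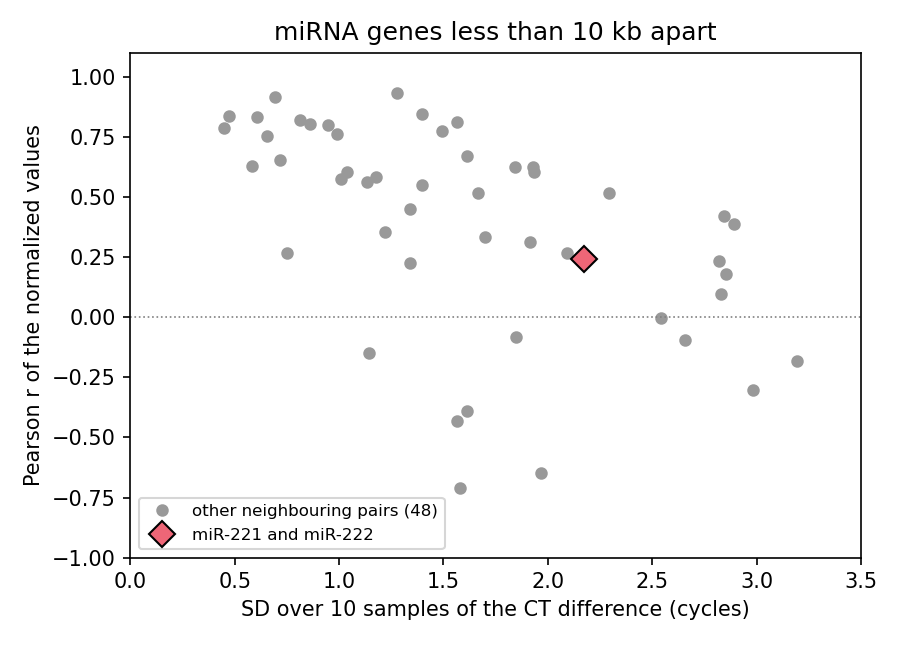
Pearson r of the normalized values against the SD of the CT difference (cycles) over 10 samples, for pairs of assays whose genes lie within 10000 bases; the diamond is miR-221 and miR-222 and the points are 48 other pairs. The pair lies at r = 0.243 and SD = 2.17, below the median r of 0.536.

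The 5 assays whose pattern was most like that of miR-221, among 120 assays measured in all 12 samples, were miR-204 (r = 0.793), miR-324-5p (0.770), miR-21 (0.762), miR-16 (0.758) and miR-106b (0.709), over 10 samples. None of them was called between E20 and P25, with changes from -3.12 for miR-106b to 0.15 for miR-21. miR-222 ranked 53 of the 120 by likeness to miR-221. miR-221 itself had r = -0.533 with the array median CT and r = 0.518 with the number of miRNAs detected on the array, and the part of array quality in its values was not tested.

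The assays most like miR-222, among 119 over 12 samples, were miR-383 (r = 0.612), miR-141 (0.602), miR-148a (0.596), miR-186 (0.575) and let-7g (0.526). miR-148a, which is abundant in the acinar cells of the pancreas, rose by 5.20 from E20 to P25 (limma's adjusted p = 7.0e-04). Changes of the other 4 were between 0.61 and 2.28, and none was called. With the array median CT and the number of detected miRNAs miR-222 had r of 0.058 and -0.233. The 2 lists of 5 partners, from 120 and 119 assays over 10 and 12 samples, had no member in common. Lists this short would seldom share a member by chance alone, so this does not show that the 2 miRNAs differ.

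Related miRNAs were read from lists chosen by what they are known for. Of the proliferation-associated clusters (the miR-17 to miR-92a and miR-106b to miR-25 clusters), 8 of 9 assays were tested, 0 were higher and 1 lower at P25, and the median change was -2.02. Of the miRNAs known to restrain the cell cycle (the miR-15/16 and miR-34 families), 6 of 10 were tested, none was called, and the median change was 1.38. Among the other 44 assays of miRNAs found on chromosome X alone, 17 were tested, 0 were higher and 2 lower, and the median was -0.54. Beside these counts, 12.0% of all 192 assays were called, a share like that of the proliferation-associated and X-linked lists, and their median was 0.15; miR-221, at -1.01, and miR-222, at 3.14, lay on either side of it.

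Captured tissue can hold cells other than acinar cells, and in bulk samples fewer cells of a type and less RNA per cell cannot be told apart. The summed level of a list in a sample is the log2 of the sum of its assays' levels, each first taken off the log2 scale. The most abundant assay therefore weighs most, and a range gives the lowest and highest sample. Markers of acinar and secretory cells were detected in part, with summed levels of 2.52 to 3.72 at E20 and 8.01 to 8.66 at P25. Of the 4 tested assays of this list 2 were higher at P25 and none lower, and miR-375 averaged -4.06 at E20 (n = 2) and 5.81 at P25 (n = 3). The sum rested mostly on miR-148a, which averaged 2.90 at E20 and 8.10 at P25; miR-216a had no CT at E20 and 1 at P25, and the mouse assay of miR-217 averaged -3.06 and -2.23. All 9 epithelial assays were tested and none was called, with summed levels of 6.93 to 8.35 at E20 and 8.10 to 9.07 at P25. miR-200a averaged 2.28 at E20 and 4.88 at P25, and the mouse assay of miR-200b 4.05 and 6.29, whereas miR-205 averaged 6.75 and 4.52 and miR-203 0.29 and -1.84. The single assays beyond the first pair of each list were chosen after their values were seen.

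Endothelium, a known source of both miRNAs, was represented by miR-126-3p alone. Its level was 2.56 to 3.93 at E20, 3.07 to 4.33 at P5, 1.83 to 4.74 at P15 and 2.71 to 4.88 at P25, its change of 0.93 was not called, and the ages overlapped. Of 5 tested leukocyte assays (7 in all) none was called, and their summed level was 2.03 to 3.04 at E20 and 1.79 to 3.31 at P25. miR-142-3p averaged -0.40 at E20 and -0.92 at P25, and miR-142-5p -3.58 at E20 and -1.39 in 1 sample at P25. miR-150 averaged 0.04 at E20 and 1.82 at P25, and miR-146a -2.95 and -1.46. Both assays of miR-223 were lower at P25, the mouse assay at 0.70 and 0.36 (n = 2 at P25) and the rat assay at -0.08 and -0.69. Of the 21 leukocyte wells at each age, 21 had a CT at E20 and 15 at P25, where miR-155 had none. The part of these cells in the levels of miR-221 and miR-222 was not tested.

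Other lists held called assays. Smooth muscle and pericyte markers had a summed level of 4.77 to 5.11 at E20 and 6.43 to 7.35 at P25, with 1 of 3 assays higher; miR-143 averaged 2.65 and 3.64 in its mouse assay, and miR-145 1.80 and 6.54. The call was that of miR-145, whose E20 values were -2.97, 4.34 and 4.04; without E20 replicate 1 its change was 2.35 in place of 4.74 and did not pass (limma's adjusted p = 0.113). Fibroblast markers had 4.81 to 5.57 at E20 and 2.30 to 2.68 at P25, with 1 of 3 lower. The call was that of miR-214, which averaged 3.25 and -1.28, a change of -4.53 (limma's adjusted p = 0.00466). It passed with any single sample left out (limma's adjusted p at most 0.0246). The uncalled miR-199a-3p averaged 3.86 and 1.79, and miR-199a-5p 3.33 and 0.62. Striated muscle markers had 4.36 to 6.23 at E20 and 0.17 to 1.88 at P25, with 2 of 3 tested assays lower; the mouse assay of miR-1 averaged 1.40 and -1.88, and miR-133a 2.42 and -2.15. Both striated muscle calls, of miR-1 and miR-133b, were lost when some single samples were left out, such as E20 replicate 2 (limma's adjusted p = 0.118 for each). The smooth muscle and acinar levels moved in the same direction as miR-222 from E20 to P25. So did, without a call, miR-126-3p (0.93) and the epithelial list (median change 2.02), in which miR-205 and miR-203 fell. In the leukocyte list miR-150 and miR-146a also rose without a call, while the median change of that list was -0.52. The part of these cells in the values of miR-222 was not tested.

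Nerve markers, 2 of 3 tested and none called, had a median change of -1.52; miR-124 averaged 0.01 at E20 and -2.92 at P25 (n = 2), and miR-9 0.11 at E20 and -5.90 in 1 sample at P25. None of 3 erythrocyte assays met the detection filter, with 9 of 9 wells detected at E20 and 4 of 9 at P25; miR-451 averaged 0.00 at E20 and -1.07 at P25 (n = 2), and miR-144 0.56 at E20 and -0.63 in 1 sample at P25. The part of either cell type in the levels of miR-221 and miR-222 was not tested.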

How the data were processed

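miRNAs were measured by qRT-PCR on a panel with 1 primer set per well, in laser-captured acinar cells of 12 samples. Per the labels and the study's methods, the authors combined lysates of several caps into each sample and deposited raw CT values, which are a score in cycles on a log2-like scale. Their later imputation and scaling to the array median are not in the deposited table; undetermined wells were read as missing, 1478 of 4500 (32.8%).

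Assays with a CT under 40 in at least 2 of 3 samples at every age were kept (192 of 375), each CT was subtracted from its array's median CT of detected miRNAs, and 122 missing values were then imputed from the 10 nearest assays. Groups followed the ages in the labels. limma 3.58.1 (R 4.3.3) was fitted to all 12 samples with Benjamini-Hochberg adjustment over 192 assays and a threshold of 0.05; the trend used age in days, with E20 at -2. The measured values and the CT difference were compared by exact permutation tests, and correlations used 100000 permutations (numpy, Python). The procedure was tested on simulated data.

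The named miRNAs were the members, the 5 assays most correlated with each, and the first 2 markers of each cell type list. Some further markers of these lists were named after their values had been seen. Members and lists were chosen with earlier results of these data known. Depth has no count here: the number of detected miRNAs and the CT stand for the precision.

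Ages share replicate numbers. Over the 120 miRNAs detected in all samples, deviations among P5, P15 and P25 correlated above 0.1 in 9 of 9 same-numbered pairs (0.126 to 0.563). With E20 this held in 1 of 9 pairs (-0.234 to 0.123). From these values alone, and not from the labels, the numbers were read as pairing only the postnatal ages. Replicate 1 also detected the fewest miRNAs at P5, P15 and P25 (224, 179 and 202), but not at E20. The part of array quality in these correlations was not tested, and correlations of differently numbered pairs are not shown. Wherever it was used, in limma, the CT difference and the correlation, the replicate block joined E20 by number too. It therefore did not test the postnatal pairing alone. Alternatives covered the detection filter, missing wells, the reference, the CT limit, the statistics, the replicate block and each sample left out.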

Additional observations from a re-analysis of the deposited data

How the results depend on the processing

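Over all settings run, miR-221 passed no test and the change of miR-222 from E20 to P25 stayed positive, from 1.42 to 4.52, while the median change over all assays ran from -1.58 with no reference to 0.96 with small nuclear RNAs. With the replicate block, miR-222 changed by 3.14 (limma's adjusted p = 0.0652) and the CT difference varied among ages with exact permutation p = 0.164; r within ages and replicate numbers was 0.713. The block changed no other call of the members. For the CT difference, counting CT above 37 as not detected left 6 samples (exact permutation p = 0.111), a limit of 35 gave a change of -1.48 from E20 to P25 and no test among ages, undetermined wells at CT 40 gave p = 0.187, and single samples left out gave p of 0.0333 to 0.136 and changes of -5.53 to -2.94. Relative to the small nuclear RNAs, whose mean CT ran from 22.0 to 32.4 over the arrays, the correlation was 0.810 (permutation p = 0.00414). The median over 10290 pairs of assays scaled the same way was 0.880. Against the array median, where r was 0.243, single samples left out gave r of 0.103 to 0.620. miR-222 could not be tested with CT limits of 37 or 35, nor miR-221 with detection in all samples or a limit of 35.

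With missing wells at CT 40 miR-221 changed by -3.16 from E20 to P25 and by -1.29 per 10 days, and with no reference by -2.73 and -1.08, none passing. It turned its sign from P5 to P15 without imputation (0.32) and with small nuclear RNAs (1.06), over the trend with small nuclear RNAs (0.041), and from E20 to P5 with no reference (-0.41). With single samples left out it ran from -1.71 to 0.21 for E20 to P25, -0.35 to 0.92 for E20 to P5, -1.30 to 0.32 for P5 to P15, -1.59 to 0.25 for P15 to P25 and -0.60 to 0.022 for the trend.

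Counts of called assays moved as follows. From E20 to P25 (23), 6 were called with detection in all samples, 10 with missing wells at CT 40, 40 and 35 with the median and the mean of miRNAs detected in all samples as reference, 0 with small nuclear RNAs, 47 with the median after imputation, 11 with a limit of 35, 35 with the contrast's ages alone and 11 to 39 with single samples left out. From E20 to P5 (0), 1 was called with the median of those miRNAs, 1 with the median after imputation and 0 to 2 with samples left out, and from P15 to P25 (0) 0 to 1. For the F test (15), 7, 3, 0, 0 and 23 were called with detection in all samples, CT 40, small nuclear RNAs, no reference and the median after imputation, 7 and 6 with limits of 37 and 35, 7 with ordinary ANOVA and 1 to 21 with samples left out. For the trend (27), 45 were called with detection at any age, 10 with detection in all samples, 12 with CT 40, 42 with the median of miRNAs detected in all samples, 0 with small nuclear RNAs, 46 with the median after imputation, 13 with a limit of 35 and 14 to 41 with samples left out. The cause was not tested.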
